A study of Mus musculus with 10 samples.

Results

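The genes of lipoprotein assembly followed here in bulk liver RNA-seq were Apob, Mttp, Apoa1, Apoa2, Apoa4, Apoa5, Apoc1, Apoc2, Apoc3 and Apoe. They were chosen by name as the hepatic apolipoproteins of very-low-density lipoprotein (VLDL) and high-density lipoprotein (HDL) together with the lipid loader of VLDL, and all 10 of 10 were found among 41388 genes and tested among 13444. The study compared livers of C57B/6J littermates of 12 wk, described as male in the methods. The groups were WT refed (n = 2; fasted for 22 h and given food again for 2 h), WT Fasting (n = 3; fasted for 24 h) and NAMPT LKO Fasting (n = 5; fasted for 24 h). WT mice carried the floxed Nampt allele without Cre (NAMPT fl/fl), and NAMPT LKO mice carried it with Albumin-cre, which deletes Nampt, the rate-limiting enzyme of NAD+ salvage, in hepatocytes. The study's text describes a shorter fast and a freely fed control, whereas the sample labels give the fasting and refeeding times above. No refed NAMPT LKO group was given, so the effect of genotype on the response to fasting cannot be separated from its effect in the fasted state.

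Hepatocytes export triglyceride as VLDL. Microsomal triglyceride transfer protein (Mttp) loads lipid onto the growing ApoB chain in the endoplasmic reticulum, the particle matures on its way through the secretory pathway, and exchangeable apolipoproteins then control how fast it is hydrolysed and cleared from blood. ApoC-II activates lipoprotein lipase, ApoC-III restrains it, ApoA-V promotes it, and ApoE hands remnants to hepatic receptors. ApoA-I and ApoA-II are the structural proteins of HDL.

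Depth was similar between libraries, with 30603080 to 43434139 reads counted per liver, and no member had fewer than 7403 reads in any liver, so that counting error was small beside the spread between mice. Nampt itself fell in NAMPT LKO Fasting livers, at 11.8 to 15.3 CPM after normalization by trimmed mean of M-values (TMM; CPM is the read count scaled to library size) against 63.0 to 141 in WT Fasting livers (log2 fold change -2.81, adjusted p = 0.00102, edgeR's quasi-likelihood test). The hepatocyte markers summed to 62290 to 107400 TMM CPM across the 10 libraries. One library stood apart: NAMPT LKO Fasting replicate 5 had 21.1% of its counts in mitochondrial genes (7.42% to 12.9% in the other 9), and its deviation from the mean of all libraries fell with the GC content of a gene (Spearman rho -0.59 across 13369 genes, which are not independent replicates, against -0.037 to 0.27 in the other libraries). Some values that rest on that liver are given with and without it, and some values are also given after removal of the GC trend.

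The members were among the most abundant transcripts of the liver. Per length, as RPKM (CPM divided by gene length), Apoe was highest at 11690 ± 1325 (SD, n = 10) and ranked 7 among all genes. Apoa2 (9280 ± 816), Apoa1 (7382 ± 1381) and Apoc1 (6490 ± 594) followed, at ranks 8, 10 and 14. A gap then separated these HDL and remnant proteins from the remaining members. Apoc3 (959 ± 146), Apoa5 (674 ± 146), Apob (562 ± 51.4), Apoa4 (296 ± 194) and Apoc2 (275 ± 19.9) came next. Mttp was lowest at 89.4 ± 8.37 RPKM, still at rank 553. In that order, the ranges over the 10 livers overlapped between every pair of neighbours except Apoc1 and Apoc3 and except Apoc2 and Mttp. As one pool, the 10 genes took 4.86% ± 0.050 of all counted reads in WT refed livers (n = 2), 5.60% ± 0.19 in WT Fasting livers (n = 3) and 5.18% ± 0.26 in NAMPT LKO Fasting livers (n = 5), with the lowest value, 4.76%, in NAMPT LKO Fasting replicate 5. Of the counts outside mitochondrial genes, they took 5.54% ± 0.080, 6.22% ± 0.12 and 5.99% ± 0.089, and replicate 5 was within its group at 6.04%.

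**Figure D1:**
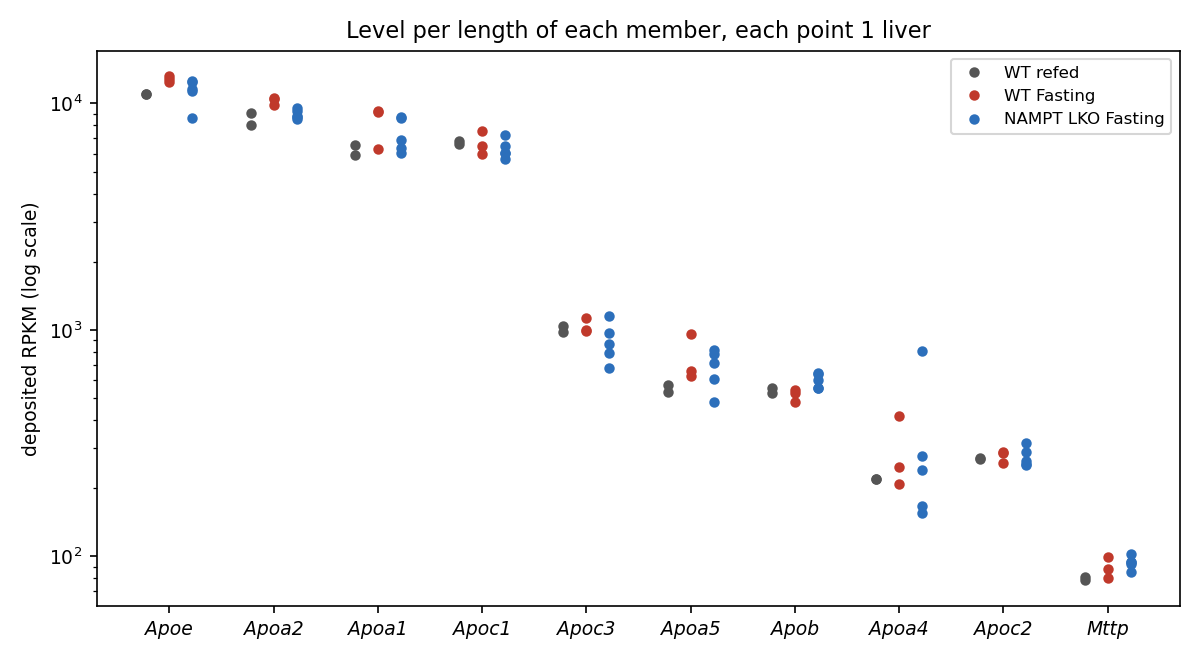
Deposited RPKM of each member in each liver on a log axis, with genes ordered by their mean and points coloured by group. Apoe, Apoa2, Apoa1 and Apoc1 lie at or above 5660 RPKM in every liver, and Mttp lies between 78.2 and 102.

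Most of the members lie in 2 clusters in the mouse genome (GRCm38). Apoa1 (chr9:46228580-46230466), Apoc3 (chr9:46232933-46235636), Apoa4 (chr9:46240696-46243459) and Apoa5 (chr9:46268633-46271919) are neighbours, with Apoc3 on the minus strand. Apoc2 (chr7:19671579-19681423), Apoc1 (chr7:19689484-19692658) and Apoe (chr7:19696109-19699166) share the minus strand of another cluster. Apob (chr12:7977648-8016835), Mttp (chr3:138089855-138143388) and Apoa2 (chr1:171225054-171226379) stand alone. Apoc2 shares 112 of its 932 exon bases (12.0%) with Apoc4 on the same strand, and reads there could be assigned to neither. Apoa4 shares 632 of 1815 exon bases (34.8%) with Gm10680 on the other strand. Gm10680 had 0 reads in every liver, and the strand setting of the counting is not given in the sources used here.

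Promoter sequence from RefSeq (GRCm38.p6) was given for 8 of the 10 members. Shown are those of the members on which the values below turn: Apoa5, with the lowest unadjusted p between WT Fasting and WT refed, Apob, with the lowest between the genotypes, and Apoa4, with the widest spread. Each is the plus strand of up to 250 bases before the RefSeq start, cut where the gene model of the files begins, and capitals mark a TATA box (TATAAA) or the core of a site of the HNF4 type (CAAAGNNCA), both searched on both strands.
Apoa5, chr9:46268383-46268632: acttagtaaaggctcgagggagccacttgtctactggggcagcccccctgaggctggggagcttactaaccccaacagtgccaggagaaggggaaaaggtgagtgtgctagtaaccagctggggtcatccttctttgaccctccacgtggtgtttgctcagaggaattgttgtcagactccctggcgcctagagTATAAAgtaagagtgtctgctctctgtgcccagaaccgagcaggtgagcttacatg
Apob, chr12:7977427-7977647: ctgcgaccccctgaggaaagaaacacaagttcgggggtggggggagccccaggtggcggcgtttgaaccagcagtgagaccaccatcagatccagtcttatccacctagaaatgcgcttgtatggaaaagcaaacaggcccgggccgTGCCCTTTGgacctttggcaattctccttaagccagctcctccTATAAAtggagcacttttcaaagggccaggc
Apoa4, chr9:46240594-46240695: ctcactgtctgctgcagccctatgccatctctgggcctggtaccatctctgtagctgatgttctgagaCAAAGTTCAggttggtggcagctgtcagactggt

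The HNF4-type core began 103 bases before the RefSeq start in Apob, where it was read on the minus strand, and 182 bases before it in Apoa4. It was present in 5.49% of 32851 mouse promoters searched over the same 250 bases. A TATA box began 60 bases before the start in Apob, 56 in Apoa5 and 212 in Apoa2, and 12.4% of promoters held one. A forkhead core (TGTTTAC, in 3.17% of promoters) was found in Apoa2, 77 bases before the start. A nuclear receptor half-site (AGGTCA, in 14% of promoters) was found in Apoc2. The RefSeq start used for Apoc2 (chr7:19677941) lies inside the gene model of the files, which reaches 19681423. Its searched window therefore lies within that model. Mttp, Apoa1 and Apoe held none of the 4 sets of letters in this window. These matches describe letters and not occupied sites.

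The first comparison asked how the fasted WT liver differed from the refed WT liver. A gene was called where its p from edgeR's quasi-likelihood test, adjusted by Benjamini-Hochberg over all 13444 genes, was 0.05 or less. None of the 10 members was called, in a comparison where 7.04% of all genes were. At an unadjusted p under 0.05, 1 of 10 members passed, against 22.3% of all genes. The log2 fold change was above 0 in 9 members and below 0 in 1, with a median of 0.25 for the members and 0.037 for all genes tested. In 5 members every fasted liver was above every refed liver, and 24.5% of all genes were apart in that direction. The 95% intervals of the 9 members other than Apoa4 lay between -0.28 and 1.01 on the log2 scale, and that of Apoa5 alone did not include 0.

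**Figure D2:**
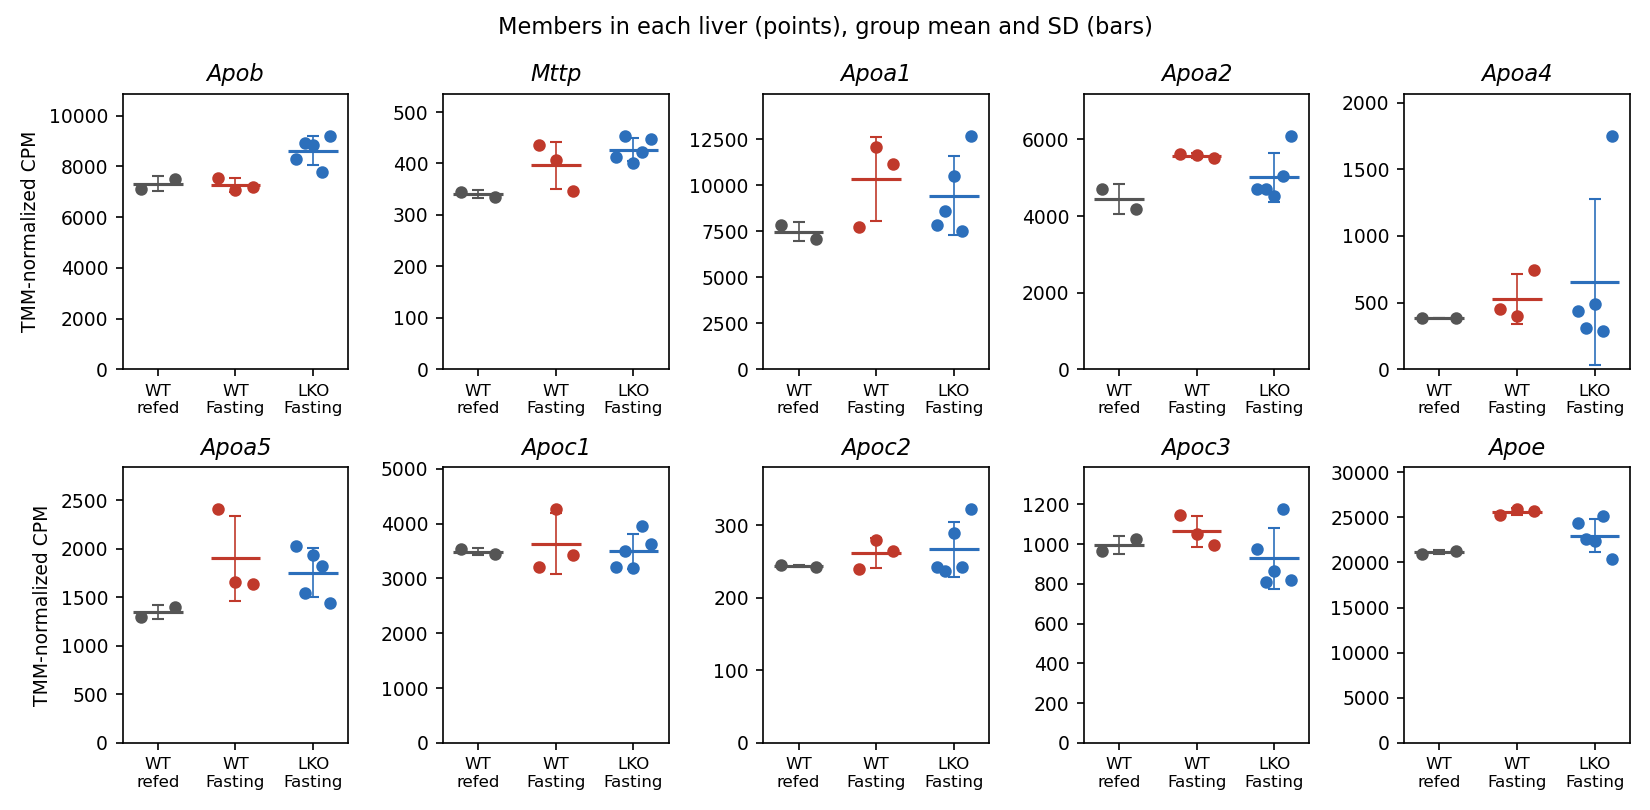
TMM-normalized CPM of the 10 members in each liver (points), with the group mean (horizontal line) and SD (error bar) for WT refed (n = 2), WT Fasting (n = 3) and LKO Fasting, the NAMPT LKO Fasting group (n = 5); each axis starts at 0. Apoe and Apoa2 show no overlap between fasted and refed WT livers, and NAMPT LKO Fasting replicate 5 lies far above all other livers for Apoa4.

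The assembly genes differed in their values. Apob, which encodes the structural protein of VLDL, was level between fed states: 7102 and 7521 TMM CPM in WT refed livers against 7562, 7059 and 7179 in WT Fasting livers (log2 fold change -0.0089, SE 0.12, 95% interval -0.28 to 0.26, adjusted p = 0.977). The groups overlapped, and the interval excludes a change of more than 1.20-fold upward. Mttp read 345 and 335 TMM CPM in WT refed livers and 436, 407 and 346 in WT Fasting livers (log2 fold change 0.22, SE 0.13, adjusted p = 0.348). The groups were apart, but the lowest fasted liver was next to the higher refed liver.

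Among the lipolysis regulators, Apoa5 had the largest fold change of the members in this comparison. It read 1294 and 1400 TMM CPM in WT refed livers and 2408, 1657 and 1632 in WT Fasting livers, a 1.41-fold difference (log2 0.50, SE 0.21, 95% interval 0.042 to 0.95, adjusted p = 0.184). WT Fasting replicate 1 carried much of it, and without that liver the log2 fold change was 0.28. Apoc2, the activator of lipoprotein lipase, read 245 and 243 TMM CPM in WT refed livers and 240, 280 and 265 in WT Fasting livers. Apoc3, its inhibitor, read 965 and 1028 against 1145, 1052 and 995. Neither differed beyond the spread between mice (log2 fold changes 0.10 and 0.095, adjusted p = 0.752 and 0.793). Apoc1, which slows remnant uptake, read 3533 and 3443 TMM CPM against 3215, 4268 and 3432, with the 2 groups interleaved (log2 fold change 0.061, adjusted p = 0.857).

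The HDL proteins and ApoE had higher means in fasted WT livers. Apoe read 20990 and 21290 TMM CPM in WT refed livers and 25210, 25920 and 25760 in WT Fasting livers (log2 fold change 0.28, SE 0.13, 95% interval -0.00096 to 0.56, adjusted p = 0.225). Apoa2 read 4719 and 4176 in WT refed livers and 5629, 5582 and 5506 in WT Fasting livers (log2 fold change 0.33, SE 0.15, adjusted p = 0.229). Both genes were apart between the groups, Apoe with little spread within them, yet neither passed the test over all genes. Apoa1, the main protein of HDL, read 7840 and 7102 TMM CPM against 7742, 12070 and 11160 (log2 fold change 0.47, SE 0.25, adjusted p = 0.299). WT Fasting replicate 1 was within the refed range for Apoa1, although it was the highest fasted WT liver for Apoa5 from the same cluster. Apoa4 read 387 and 388 TMM CPM in WT refed livers and 449, 396 and 742 in WT Fasting livers (log2 fold change 0.45, SE 0.68, adjusted p = 0.751).

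The choice of test mattered here. With voom and sample quality weights, which give noisier libraries less weight and call 24.8% of all genes in this comparison, Apoa2 (adjusted p = 0.0237), Apoa5 (0.0400), Apoe (0.0442) and Mttp (0.0473) were called, all higher in WT Fasting livers. The edgeR exact test and DESeq2 called none of the 10 (8.87% and 12.3% of all genes). After removal of the GC trend, Apoa2, Apoa5 and Apoe were apart between the groups, as were 21.4% of all genes, and Mttp and Apoa4 overlapped. The log2 fold change of Apoe was then 0.20 (adjusted p = 0.489, edgeR's quasi-likelihood test).

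**Figure D3:**
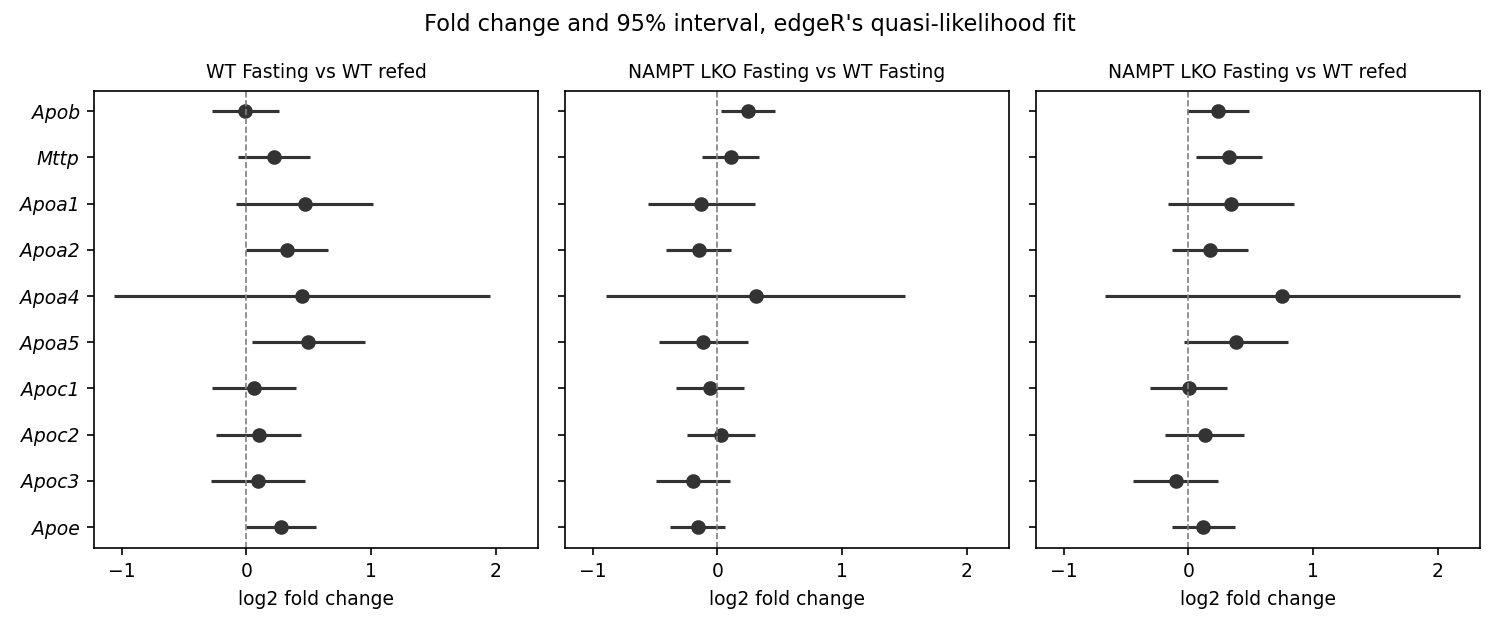
Log2 fold change of each member (point) with its 95% interval (line) in the 3 comparisons, from edgeR's quasi-likelihood fit of all 10 libraries; the dashed line marks no change. Apoa4 has the widest interval in each panel, and 9 of 10 points lie right of 0 in the comparison of WT Fasting with WT refed.

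The second comparison asked whether loss of hepatocyte NAMPT altered these genes in fasted mice. None of the 10 members was called in NAMPT LKO Fasting against WT Fasting livers, where 0.00744% of all genes, Nampt alone, were called by edgeR's quasi-likelihood test. One member and 6.03% of all genes had an unadjusted p under 0.05, and voom with sample quality weights, the edgeR exact test and DESeq2 called 0 members (0.00744%, 0.179% and 0.157% of all genes). The log2 fold change was above 0 in 4 members and below 0 in 6 (median -0.086, against 0.00025 over all genes). The 95% intervals of the 9 members other than Apoa4 lay between -0.56 and 0.46 on the log2 scale. WT Fasting livers served as the second group here and as the first group above, so the values of both comparisons share those 3 livers.

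Apob was the member with the lowest p between genotypes. It read 8274, 8929, 8859, 7790 and 9217 TMM CPM in NAMPT LKO Fasting livers, every one above the highest WT Fasting liver at 7562 (1.19-fold, log2 0.25, SE 0.099, 95% interval 0.028 to 0.46, adjusted p = 0.827). Of all genes, 1.87% were apart in this direction. Without NAMPT LKO Fasting replicate 5 the log2 fold change was 0.22. Apoe showed the reverse: 24360, 22650, 22410, 25140 and 20360 TMM CPM in NAMPT LKO Fasting livers, every one below the lowest WT Fasting liver at 25210 (log2 fold change -0.16, SE 0.10, adjusted p = 0.839, with 2.12% of all genes apart in this direction). Apob has the lowest GC content of the members (43.7% over the pooled bases of its annotated transcripts) and Apoe the highest (60.0%). With the GC trend removed, the groups overlapped for both genes, and the log2 fold changes were 0.17 for Apob and -0.013 for Apoe. For Apob the overlap came from NAMPT LKO Fasting replicate 5 alone (7494 TMM CPM), the library with the strongest GC trend. The other livers of its group read 8522, 8949, 9124 and 7982, above the highest WT Fasting liver at 7849. For Apoe, replicates 4 and 5 (23860 and 30700) were above the lowest WT Fasting liver at 23440.

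Mttp read 412, 454, 400, 422 and 447 TMM CPM in NAMPT LKO Fasting livers, overlapping the WT Fasting range of 346 to 436 (log2 fold change 0.11, SE 0.10, adjusted p = 0.863). The lipolysis regulators overlapped between genotypes. Apoa5 read 2031, 1545, 1939, 1819 and 1437 TMM CPM (log2 fold change -0.11, or 0.094 without WT Fasting replicate 1). Apoc3 read 976, 808, 866, 1177 and 818 (log2 fold change -0.20, SE 0.14, adjusted p = 0.839). Apoc2 (237 to 322 TMM CPM) and Apoc1 (3192 to 3950) enclosed most of the WT Fasting values, with log2 fold changes of 0.028 and -0.058. For the HDL proteins the values were -0.13 for Apoa1 (7534 to 12710 TMM CPM) and -0.15 for Apoa2 (4521 to 6102). NAMPT LKO Fasting replicate 5 was the highest liver of its group for both, and without it the values were -0.26 for Apoa1 and -0.23 for Apoa2.

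Apoa4 turned on a single mouse. It read 435, 306, 491, 284 and 1753 TMM CPM in NAMPT LKO Fasting livers, and the last of these, replicate 5, was more than 2-fold above every other liver of the series. The log2 fold change against WT Fasting was 0.31 (SE 0.55, 95% interval -0.90 to 1.51, adjusted p = 0.926) with that liver and -0.48 without it. In the small intestine Apoa4 is a chylomicron protein, and of 9 markers of small intestinal epithelium, 8 stayed at or below 0.163 TMM CPM in every liver, with Sis and Fabp6 at 0 reads. The ninth, Fabp2, read 218 TMM CPM in replicate 5 and 70.9 to 112 in the other 9 livers. Replicate 5 also had the mitochondrial share and GC trend given above, and their part in its Apoa4 value was not tested. With the GC trend removed, its Apoa4 value was 2381 TMM CPM, and the log2 fold change against WT Fasting with all livers was 0.62.

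The third comparison set the fasted NAMPT LKO livers against refed WT livers, which differ in both genotype and feeding. No member was called by edgeR's quasi-likelihood test, where 11.2% of all genes were, and 1 of 10 passed an unadjusted p under 0.05 (26.1% of all genes). Mttp had the lowest p: each NAMPT LKO Fasting liver (400 to 454 TMM CPM) was above both WT refed livers (335 and 345), a log2 fold change of 0.33 (SE 0.12, 95% interval 0.063 to 0.59, adjusted p = 0.109). DESeq2 (adjusted p = 0.0418) and voom with sample quality weights (0.00723) called it, tests that called 16.8% and 31.8% of all genes. It was still apart after removal of the GC trend (16% of all genes). Apob (log2 fold change 0.24, adjusted p = 0.217) and Apoa5 (0.38, adjusted p = 0.236) were also apart, as were 15.7% of all genes in this direction. Once the GC trend was removed, Apob overlapped through NAMPT LKO Fasting replicate 5 alone (7494 TMM CPM against 7236 and 7717 in WT refed livers). Voom called Apoa5 as well (adjusted p = 0.0430), and the edgeR exact test called 0 members (12.8% of all genes). The remaining members had adjusted p of 0.394 or more, and Apoa4 changed from a log2 value of 0.75 to -0.029 without NAMPT LKO Fasting replicate 5. With all livers and the GC trend removed, the log2 value of Apoa4 was 0.98. In bulk liver, fewer cells of a type and less RNA per cell cannot be told apart.

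The members differed widely in how much mice of one group varied. The within-group SD of log2 CPM was 0.082 for Apob and 0.090 for Apoe, smaller than in most genes of at least 100 CPM: 6.49% and 8.75% of those 1326 genes varied less. These SDs were taken without removal of the GC trend. With it removed, Apoe ranged from 20570 to 30700 TMM CPM in NAMPT LKO Fasting livers, with replicate 5 highest, against 20360 to 25140 before. Mttp (0.11), Apoa2 (0.14), Apoc1 (0.15) and Apoc2 (0.16) were below the median of 0.18, and Apoc3 (0.18) was next to it. Apoa5 (0.24) and Apoa1 (0.30) were above it. Apoa4 had an SD of 0.84, above 98.3% of those genes. Without NAMPT LKO Fasting replicate 5 the SD of Apoa4 was 0.39, above 94.7% of those genes. The median of all those genes then fell to 0.12, and the order of the members against it changed. Apoe (0.058), Apoa2 (0.070) and Apob (0.076) were well below it, and Mttp (0.11) and Apoc2 (0.11) were next to it. Apoc1 (0.16) and Apoc3 (0.18) were above it without that liver, as were Apoa5 (0.22) and Apoa1 (0.25).

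**Figure D4:**
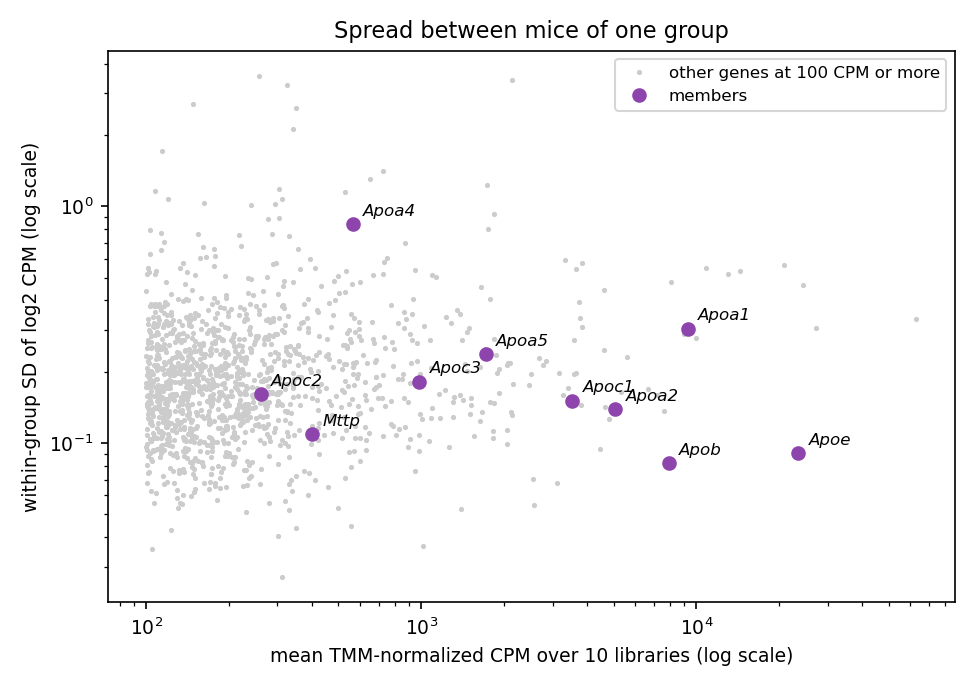
Within-group SD of log2 CPM against mean TMM-normalized CPM over the 10 libraries, both on log axes, for genes of at least 100 CPM (grey) and the 10 members (purple, labelled). Apob and Apoe lie near the lower edge of the cloud at high abundance, and Apoa4 lies near its upper edge.

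The genes whose log2 CPM over the 10 livers was most like that of 3 members were found among 9171 genes by Pearson r, as a description over livers that share groups and libraries. For Apob they were Zfp189 (r = 0.96), Ccdc191, Vps33a, Vps13b and Peak1 (the last at 0.91). For Mttp they were Gpcpd1 (r = 0.96), Rmnd5a, Mxi1, Acot12 and Dennd4a (0.95). For Apoa4 they were Gm4202 (r = 0.95), Syf2, Gm7964, Gm15500 and Cdc37 (0.93). Without NAMPT LKO Fasting replicate 5, r was 0.89 to 0.96 for the genes like Apob, 0.95 to 0.97 for Mttp and 0.75 to 0.93 for Apoa4. They were picked for a high r over livers that include the remaining 9, so a high r there was partly set in advance.

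Around the members, several genes of folding, quality control and export at the endoplasmic reticulum were lower in fasted WT livers. Of 29 tested partners of VLDL assembly and secretion, 7 were lower and 1 was higher in WT Fasting than in WT refed livers. The other 21 were not called. The median log2 fold change was -0.14 over the list and 0.037 over all genes (2.68% of all genes were higher and 4.36% lower). The refed mice had fasted for 22 h before 2 h of food, and no freely fed group was given. A change from a fed baseline therefore cannot be read from these values. Hspa5, the endoplasmic reticulum chaperone BiP, read 594 ± 93.7 TMM CPM in WT Fasting livers against 3014 ± 52.7 in WT refed livers (log2 fold change -2.34, SE 0.23, adjusted p = 0.00034, edgeR's quasi-likelihood test). Syvn1, a ubiquitin ligase of endoplasmic reticulum quality control, read 91.6 ± 17.4 against 539 ± 45.8 (-2.56, SE 0.20). Sec23b, a coat protein of the vesicles that leave the endoplasmic reticulum, read 24.6 ± 2.60 against 75.99 ± 2.91 (-1.63, SE 0.13). These genes serve secreted proteins at large and not ApoB alone. Lpcat3, which remodels the phospholipids of the VLDL surface, was the one that was higher, at 96.7 ± 13.9 against 42.2 ± 2.00 (1.20, SE 0.16). The lists were chosen with earlier results of these data known, so their counts are a description.

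**Figure D5:**
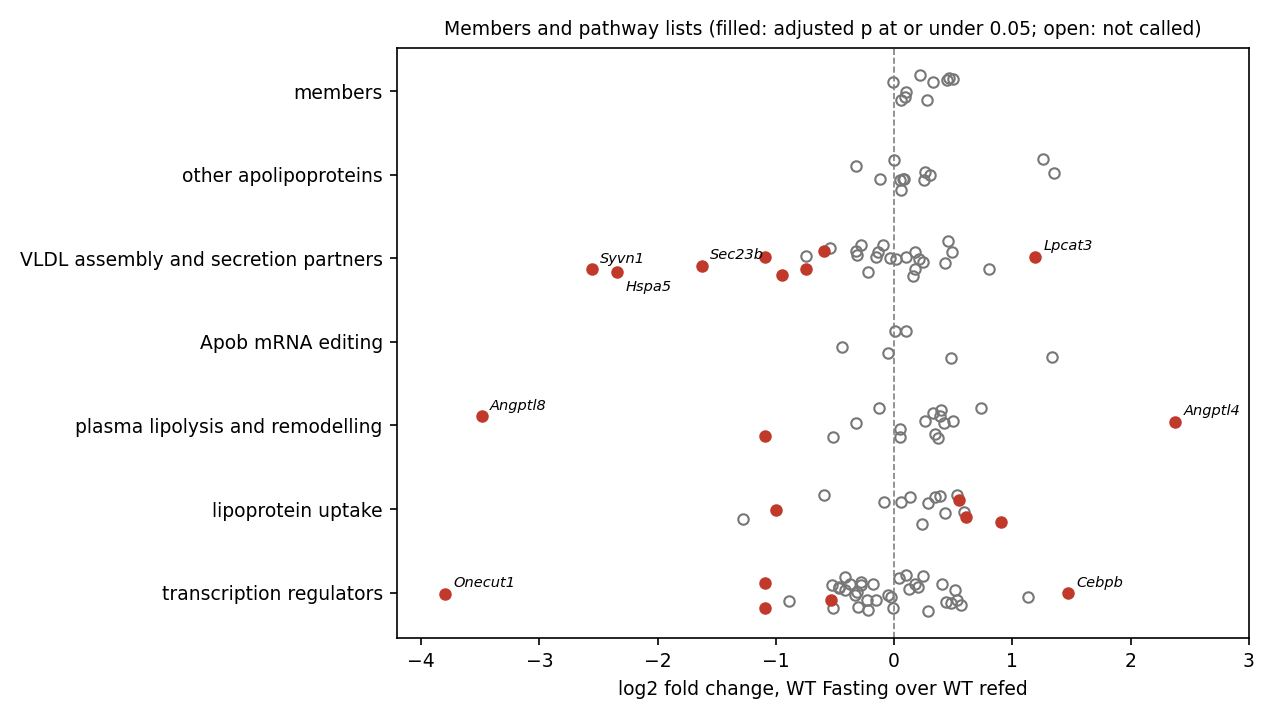
Log2 fold change of WT Fasting over WT refed for the members and 6 lists of related genes, 1 point per gene; filled points had an adjusted p at or under 0.05 and open points did not. All 10 members are open and lie between -0.0089 and 0.50, while called partners reach -2.56.

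Lipoproteins outside the hepatocyte are handled by lipases and receptors, and some regulators of both were called in this comparison, not all of them stably. Of 17 genes of plasma lipolysis and remodelling, 1 was higher and 2 were lower in WT Fasting livers (2.68% and 4.36% of all genes). Angptl4, an inhibitor of lipoprotein lipase, read 252 ± 17.0 TMM CPM in WT Fasting livers against 48.6 ± 7.90 in WT refed livers (log2 fold change 2.38, SE 0.21). Angptl8, a feeding-induced regulator of lipoprotein lipase, read 15.8 ± 8.57 against 177 ± 35.3 (-3.49, SE 0.54). Sel1l, which helps lipoprotein lipase leave the endoplasmic reticulum and works with Syvn1, was the other lower gene and also counts among the assembly partners (-1.09, SE 0.13). Of 16 uptake genes, 3 were higher and 1 was lower, beside the same shares of all genes. Mylip, a ubiquitin ligase that limits lipoprotein uptake, read 23.8 ± 0.884 against 12.7 ± 0.244 (0.91, SE 0.21). Lrp5 and Lrp6, receptors best known for Wnt signalling, were higher as well (0.61 and 0.55). The calls of Mylip and Lrp6 were lost whichever WT liver was left out. That of Lrp5 was lost without either refed liver, and that of Angptl8 without 1 refed liver.

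Of 39 transcription regulators of the members, 1 was higher and 4 were lower in WT Fasting livers (2.68% and 4.36% of all genes). Their median log2 fold change was -0.18, against 0.037 over all genes. Onecut1 differed most, at 7.50 ± 1.62 TMM CPM in WT Fasting livers against 104 ± 52.6 in WT refed livers (log2 fold change -3.80, SE 0.35). Xbp1, a regulator of the secretory pathway, read 124 ± 8.62 against 264 ± 9.37 (-1.09, SE 0.18), and Foxa2 read 35.5 ± 8.42 against 75.4 ± 7.30 (-1.09, SE 0.27). Cebpb was higher, at 185 ± 23.0 against 66.4 ± 4.90 (1.48, SE 0.31). None of 12 tested apolipoproteins outside the members and none of 6 genes of Apob mRNA editing was called by edgeR's quasi-likelihood test (7.04% of all genes). At unadjusted p under 0.05, which 22.3% of all genes passed, Apoh (0.30, adjusted p = 0.207) and the editing genes Apobec1 (0.48, adjusted p = 0.178) and Apobec3 (1.34, adjusted p = 0.121) stood above refed livers. They are named after their values were seen. Voom called 1 of the 12 and 2 of the 6 (24.8% of all genes), the edgeR exact test 0 of both (8.87%), and DESeq2 0 and 1 (12.3%).

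With only 2 refed livers, these counts leaned on both. List genes called numbered 19 with all livers, 8 without WT refed replicate 1 and 6 without WT refed replicate 2. Angptl4, Hspa5, Onecut1, Sec23b, Sel1l and Syvn1 were called whichever WT liver was left out. Foxa2, Lrp6 and Mylip were lost whichever of the 5 WT livers was left out, and Cebpb without WT Fasting replicate 2 or either refed liver. Lrp5 and Xbp1 were lost without either refed liver, and Angptl8 and Lpcat3 without WT refed replicate 2. Macrophage or Kupffer cell markers summed to 298 to 371 TMM CPM in WT refed livers and 385 to 775 in WT Fasting livers. Of these 11 markers, edgeR's quasi-likelihood test, the edgeR exact test and DESeq2 called 0 (7.04%, 8.87% and 12.3% of all genes). Voom called 1 (24.8% of all genes), and 1 had an unadjusted p under 0.05 (22.3%). The part of these markers in these differences was not tested.

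Between genotypes, 0 of the genes in the 6 lists were called by edgeR's quasi-likelihood test, by voom, by the edgeR exact test or by DESeq2. Of all genes, these tests called 0.00744%, 0.00744%, 0.179% and 0.157%. The lists held 12, 29, 6, 17, 16 and 39 tested genes. Of these, 4 had an unadjusted p under 0.05, which 6.03% of all genes had. Apol9a and Apol9b, 2 near-identical copies whose reads may be hard to assign, were among them, and WT Fasting livers spread from 20.7 to 225 and from 41.2 to 293 TMM CPM for them. The other two were Apool (log2 fold change 0.39) and Usf1 (-0.30), and these genes too are named after their values were seen. Cholangiocyte markers summed to 34.0 to 54.5 TMM CPM in NAMPT LKO Fasting livers and 15.2 to 22.3 in WT Fasting livers. Of 5 such markers, edgeR's quasi-likelihood test and voom called 0 (0.00744% of all genes each). The edgeR exact test and DESeq2 called 3 each (0.179% and 0.157% of all genes), and 4 had an unadjusted p under 0.05 (6.03%). The part of these markers in the values of the members was not tested. Against WT refed livers, NAMPT LKO Fasting livers had 2 partners higher and 7 lower, 2 lipolysis genes higher and 2 lower, 3 uptake genes higher and 2 lower, and 4 regulators higher and 5 lower, where 4.65% of all genes were higher and 6.58% lower. In the same comparison edgeR's quasi-likelihood test called 2 of 5 cholangiocyte markers higher (34.0 to 54.5 against 20.1 to 22.4 TMM CPM in sum), 1 of 6 stellate markers (216 to 290 against 178 to 181) and 1 of 5 endothelial markers (158 to 204 against 154 to 158). Their part in these counts was not tested.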

How the data were processed

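Poly-A selected RNA was sequenced as single reads of 50 bases. Per the labels and the submitters' processing notes, the authors aligned reads to GRCm38 with STAR (2.5.1a) and counted unique, unambiguous reads per Ensembl gene with featureCounts (1.4.6-p5). The study's methods name other versions. The deposited tables hold raw counts. The CPM and RPKM the authors deposited were recomputed from counts and gene lengths and matched.

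Counts of 10 libraries were fitted together, with 1 mean per group, by edgeR's quasi-likelihood test (4.0.16), TMM normalization and Benjamini-Hochberg adjustment. The 68 rRNA genes and genes not above 1 CPM in at least 1 library were left out, which left 13444. Alternatives used limma (3.58.1) voom with quality weights, the edgeR exact test, DESeq2 (1.42.0), other normalizations, offsets that remove a loess trend with GC content (span 0.5), and each library left out. On simulated data, of 100 genes changed by a log2 of 1 up or down, the fit called 33 for WT Fasting against WT refed. It called 54 between genotypes and 42 for NAMPT LKO Fasting against WT refed. Of 100 genes changed by a log2 of 2 it called 87, 95 and 88, with 6, 9 and 5 false calls. The changed genes were drawn at random from all genes tested, so these counts do not give the power for the members. A member that was not called may still differ, and smaller changes were not simulated. Named genes were all members and, of each list, the called genes or the 4 with the largest change among those with a mean of at least 5 CPM; genes named for an unadjusted p alone were chosen after their values were seen; 1 gene the rule named is not reported here, and the likeness search used the 5 nearest genes to 3 members. Members and lists were chosen with earlier results of these data known. Nothing given says that samples of a group came from separate litters, so p-values measure the spread between these samples.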

Additional observations from a re-analysis of the deposited data

Results flagged for a closer look

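Among 11 sets of NAMPT LKO Fasting values checked for a liver far from the other 4, 1 was flagged, where chance would flag 0.55. Apoa4 in NAMPT LKO Fasting replicate 5 read 1753 TMM CPM, against 284 to 491 in the other 4 livers of the group. The gap to the nearest of them was a larger share of the group's range than the critical value for 5 samples. That library also had the highest mitochondrial share, 21.1%.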

How the results depend on the processing

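No leave-one-out fit called a member in any comparison, but some log2 fold changes, none of them called, changed sign. Without 1 library at a time, these ran for WT Fasting against WT refed from -0.061 to 0.026 (Apob) and -0.070 to 0.13 (Apoc1); for NAMPT LKO Fasting against WT Fasting from -0.48 to 0.63 (Apoa4), -0.21 to 0.094 (Apoa5), -0.14 to 0.072 (Apoc1) and -0.050 to 0.080 (Apoc2); and for NAMPT LKO Fasting against WT refed from -0.029 to 0.95 (Apoa4) and -0.045 to 0.033 (Apoc1). List genes called numbered 6 to 18 for WT Fasting against WT refed and 12 to 43 for NAMPT LKO Fasting against WT refed, where 26 were called with all libraries and 43 without NAMPT LKO Fasting replicate 5.

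Library size alone gave -0.0074 (Apoc1) for WT Fasting against WT refed, -0.0062 (Apoc2) between genotypes and -0.091 (Apoc1) for NAMPT LKO Fasting against WT refed. In that last comparison Apoc1 was also -0.0048 with RLE size factors and with DESeq2, -0.0066 with factors computed without members and mitochondrial genes, -0.024 with no CPM filter, -0.0071 with only the 2 groups compared and -0.012 with voom. Removing the GC trend gave 0.0039 (Apoa1) and 0.036 (Apoc1) between genotypes. Voom gave -0.26 (Apoa4) and -0.068 (Apoc2) between genotypes and -0.039 (Apoa4) for NAMPT LKO Fasting against WT refed.

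Members called rose from 0 to 4 of 10 for WT Fasting against WT refed with voom (24.8% of all genes). For NAMPT LKO Fasting against WT refed they rose to 2 with voom and 1 with DESeq2 (31.8% and 16.8%). At unadjusted p under 0.05 it was 1 in each of the 3 comparisons (22.3%, 6.03% and 26.1% of all genes). List genes called for WT Fasting against WT refed were 19 (7.04% of all genes). They were 55 with voom (24.8%), 35 with DESeq2 (12.3%) and 44 at unadjusted p (22.3%). With only the 2 groups compared they were 32, and the share of all genes in that fit is not given here. For NAMPT LKO Fasting against WT refed list genes were 57 with voom (31.8%) and 48 at unadjusted p (26.1%), and between genotypes 4 at unadjusted p (6.03%). Lrp6 alone was lost with no CPM filter. The causes were not tested.

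Same-numbered livers of the fasted groups deviated together only weakly (r = 0.077, 0.16 and 0.097), so the numbers were not read as pairs. With the replicate block on libraries 1 to 3, 0 members were called, as without it, and Apoa4 was -0.34 (-0.37 without the block) and Apoc2 -0.032 (-0.029). Apoa4, with an SD of 0.84, had a 95% interval of -1.06 to 1.96 between WT Fasting and WT refed.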
